A study of Canis lupus familiaris with 7 samples.

Results

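The genes described here carry the adrenergic signal into the heart muscle cell: the receptors ADRB1 and ADRA1A, the receptor kinases GRK2 and GRK5, the G protein gene GNAS, the adenylyl cyclases ADCY5 and ADCY6, and the protein kinase A (PKA) subunits PRKACA and PRKAR1A. The members were chosen as every probe set, a small group of probes aimed at 1 transcript, that the platform annotation gives exactly 1 gene symbol and for which that symbol is among these 9 genes. The rule found all 9 genes and 20 of the 43035 probe sets on the array. GNAS and ADCY5 have 4 probe sets each, GRK2 has 3, GRK5, PRKACA and PRKAR1A have 2 each, and ADRB1, ADRA1A and ADCY6 have 1 each. Probe sets of a gene are numbered below from the brightest. In all, 15115 genes have a probe set with 1 symbol.

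Total RNA of the left ventricle of male dogs was hybridised to 1-colour Affymetrix canine arrays. The 4 low-salt arrays (numbered 1 to 4) come from dogs labelled as on a low salt diet, described in the design text as adult mongrels of 25 to 28 kg fed 0.5% sodium chloride for 2 weeks, and the 3 control arrays (numbered 1, 3 and 4) from dogs labelled as control. The salt in the control diet, the ages in years and any pooling of RNA are not stated in what was used here, and the design text's 10 dogs exceed the 4 low-salt arrays. No genotype or drug is named for either group, and nothing says that each array holds RNA of its own animal. The p-values below therefore reflect the spread between these arrays, which may be technical.

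As background, noradrenaline from sympathetic nerves acts on the β1-adrenergic receptor, which activates Gsα and through it adenylyl cyclase. The cyclic AMP that is made releases the catalytic subunits of PKA from their regulatory subunits, and PKA then phosphorylates calcium channels, phospholamban and troponin I, so that the ventricle beats harder and relaxes faster. GRK kinases phosphorylate occupied receptors, arrestins bind them, and the response fades. In failing hearts this chain is known to be blunted. The series title names low salt diet and cardiac disease.

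None of the 15 member probe sets bright enough to be tested passed an adjusted p of 0.05 by limma, where 0.346% of all 28616 tested probe sets did. Their smallest adjusted p was 0.330, and 0 passed by the methods' t-test with Benjamini-Hochberg adjustment. At an unadjusted p under 0.05 stood 2 of the 15 (13.3%), both higher in low salt, against 11% of all tested probe sets, 5.27% higher and 5.78% lower. By the methods' t-test 1 of the 15 stood at that level, against 10% of all tested probe sets. The groups did not overlap in the same 2 probe sets, GRK2 probe set 1 and GNAS probe set 3, against 10.8% of all tested probe sets, 5.13% higher and 5.68% lower. Both shares are close to those of the array as a whole. The median change of the 15 was 0.18, low salt minus control on the log2(intensity + 16) scale, and that of all tested probe sets was 0.036. On this scale a change of 1 is 2-fold, and the change of dim probe sets is understated. In RNA of whole tissue, fewer cells of a type and less RNA per cell cannot be told apart.

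**Figure D1:**
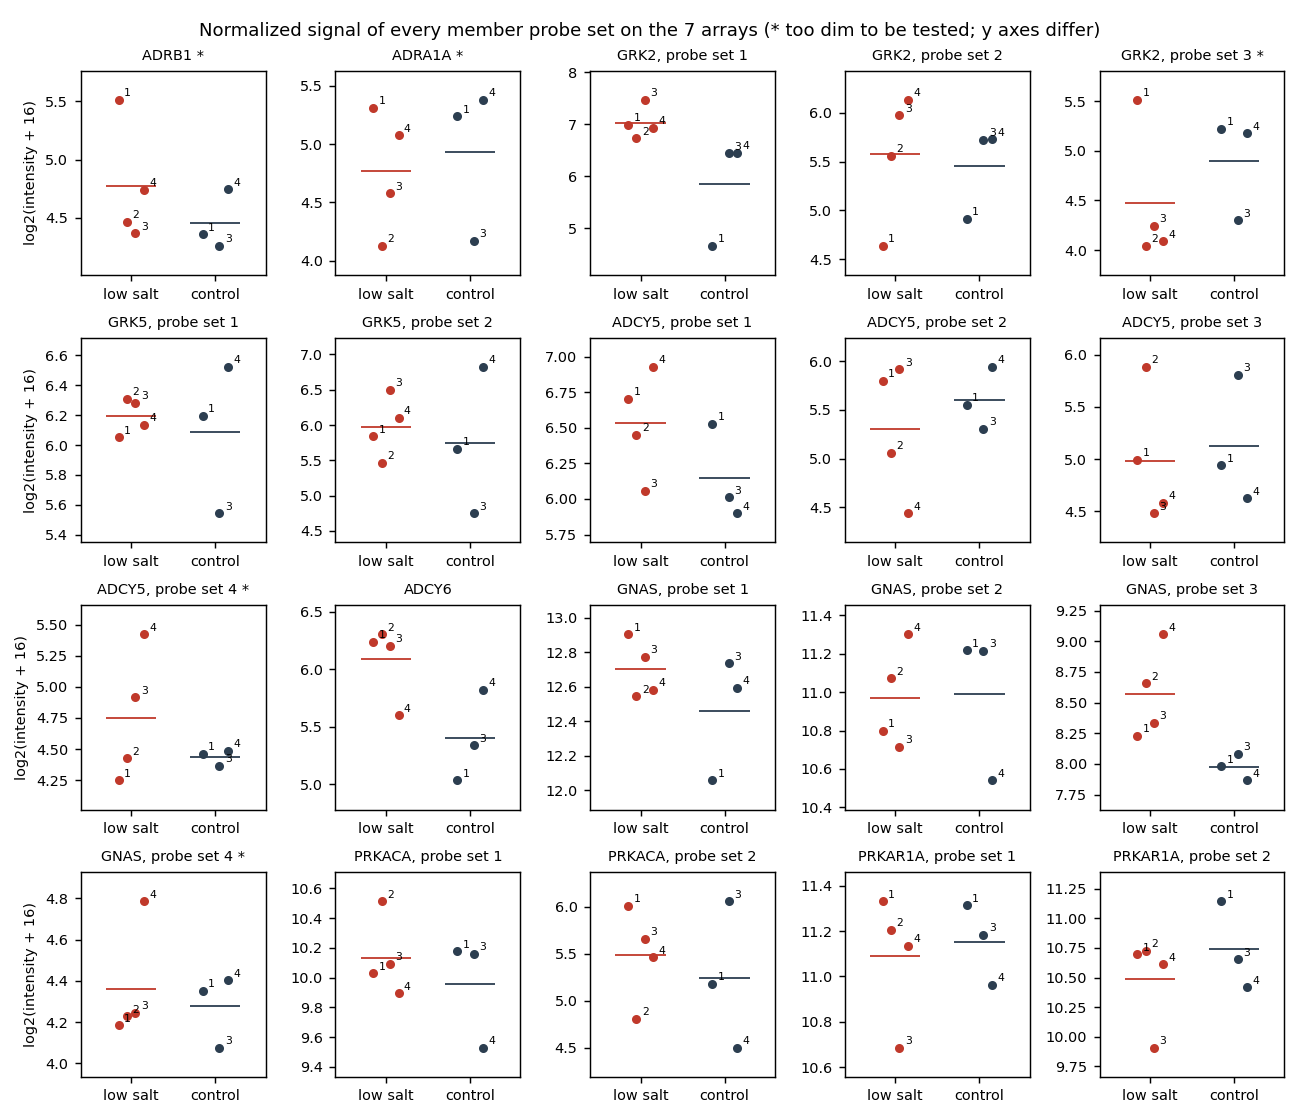
Each panel plots 1 member probe set, with the normalized log2(intensity + 16) of the 4 low-salt arrays left of the 3 control arrays, the array number beside each point and the group mean as a line. The groups are apart in GRK2 probe set 1 and GNAS probe set 3 and overlap in the other 18 panels; the y axes differ.

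The receptors were read near the bottom of the array's range. ADRB1, the β1 receptor through which noradrenaline drives the ventricle, has 1 probe set, which gave deposited intensities of 20.6, 3.7, 7.1 and 6.2 in low salt, against 5.3, 2.8 and 18.1 in controls. The highest value of each group lay well above the others, and the groups overlapped. Its normalized log2 signal averaged 4.77 ± 0.52 in low salt (SD, n = 4) and 4.45 ± 0.26 in controls (SD, n = 3), a difference of 0.32. Its difference was 0.072 without low-salt 1, 0.045 with the values as deposited and 0.77 with an offset of 1 in place of 16. Its mean stood at the 17.1th percentile of the 42924 probe sets that are not controls of the array maker, within the lowest 33.3% that were left out, so it was not tested.

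ADRA1A, an α1 receptor that couples to Gq rather than Gs, was left out by the same filter. Its probe set had intensities of 16.1, 0.8, 11.9 and 10.4 in low salt, against 27.3, 1.8 and 42.6 in controls. The values of both groups reached down to almost 0, and the normalized difference was -0.16 with overlapping groups. Without the filter on dim probe sets the unadjusted limma p was 0.309 for ADRB1 and 0.690 for ADRA1A.

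GRK2, the kinase that phosphorylates occupied β receptors and is known to rise in heart failure, had the largest change among the tested members. Its probe set 1 had intensities of 97.1, 76.4, 171 and 87.5 in low salt, against 10.8, 70.0 and 99.1 in controls. Control 1 stood far below the other 6 arrays, and in the deposited values the groups overlapped. After normalization the values were 6.99, 6.73, 7.47 and 6.93 in low salt, against 4.66, 6.44 and 6.45 in controls, without overlap. The change was 1.18 ± 0.41 (SE), 2.27-fold with a 95% interval from 1.22 to 4.21, with an unadjusted p of 0.0131 and a limma adjusted p of 0.330.

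This value rests on control 1. Without that array the change was 0.60 ± 0.31 (SE, unadjusted p = 0.0810), without control 3 it was 1.48 and without control 4 it was 1.50. With the values as deposited the unadjusted p was 0.0658, and by the methods' t-test it was 0.0766. The GAPDH 3' to 5' signal ratio, a measure of RNA integrity, was 14.5 to 22.6 on the low-salt arrays, against 40.9 on control 1 and 22.7 and 24.4 on the other controls. In a second GAPDH pair it was 2.03 to 2.41 on the low-salt arrays, and control 1 had the lowest ratio of the controls, at 2.43. The part of RNA integrity in the GRK2 value was not tested.

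GRK2 probe sets 1 and 2 had a correlation of 0.46 over the 7 arrays. Probe set 2 averaged 5.58 ± 0.67 in low salt (SD, n = 4) and 5.46 ± 0.47 in controls (SD, n = 3), a change of 0.12 with a 95% interval from -0.77 to 1.01. Probe set 3 was too dim to be tested and differed by -0.43. The change of probe set 1 exceeded that of probe set 2 by 1.06, with an exact two-sided permutation p of 0.0571, the smallest that 35 splits of 7 arrays into 4 and 3 allow. Over the 18 pairs of probe sets of a member gene compared in this way, that p had a Benjamini-Hochberg adjusted value of 0.343. With the tested probe sets of each gene averaged, GRK2 changed by 0.65 (unadjusted p = 0.0920).

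GRK5, the other main GRK of heart muscle, which is held at the plasma membrane and also enters the nucleus, had overlapping groups in both probe sets. Its probe set 1 had normalized values of 6.05, 6.31, 6.28 and 6.14 in low salt, against 6.20, 5.54 and 6.52 in controls. The low-salt arrays lay together inside the range of the controls. The change was 0.11 ± 0.32 (SE) with a 95% interval from -0.57 to 0.79, which runs from 0.672-fold to 1.73-fold. Probe set 2 differed by 0.23 ± 0.45 (SE). The 2 probe sets followed each other over the 7 arrays (r = 0.83), with control 3 lowest and control 4 highest in both. Without control 3 their changes were -0.17 and -0.27, and with the values as deposited -0.28 and -0.14, so no direction can be given for GRK5.

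GNAS encodes Gsα, the stimulatory subunit that couples β receptors to adenylyl cyclase, and its bright probe sets gave the most precise values of the receptor-to-cyclase step. Probe set 1 had intensities of 8269, 6414, 6017 and 6213 in low salt, against 4101, 7610 and 5240 in controls. The groups overlapped, and control 1 was again the lowest array. The normalized change was 0.24 ± 0.15 (SE), with a 95% interval of 0.938-fold to 1.49-fold. In the array maker's naming its identifier ends in x_at, which marks probes that may also match other sequences. Probe set 2 had a change of -0.020 ± 0.20 (SE), with an interval of 0.735-fold to 1.32-fold.

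GNAS probe set 3 was the member probe set with groups apart on both scales. Its intensities were 284, 399, 301 and 550 in low salt, against 248, 255 and 220 in controls. Every low-salt array lay above every control both as deposited and after normalization, and the SD was 0.37 in low salt and 0.11 in controls. The change was 0.59 ± 0.24 (SE), 1.51-fold with a 95% interval from 1.05 to 2.17, with an unadjusted p of 0.0289 and a limma adjusted p of 0.396. It kept its sign in all 18 settings run, from 0.42 without low-salt 4 to 1.02 with array medians set equal. Its unadjusted p was above 0.05 without low-salt 2, low-salt 4, control 1 or control 4, and with the replicate block.

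The changes of the 3 tested GNAS probe sets ran from -0.020 to 0.59, and no difference between them passed adjustment. The change of probe set 3 exceeded that of probe set 2 by 0.61 (exact two-sided permutation p = 0.0571, adjusted 0.343 over the 18 pairs) and that of probe set 1 by 0.35 (exact p = 0.343). Probe sets 1 and 2 had a correlation of -0.43 over the 7 arrays, and probe sets 2 and 3 of 0.47. Probe set 4 was too dim to be tested and differed by 0.084. GNAS is known to give several transcripts from different promoters, and which of them each probe set reads is not stated in what was used here.

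**Figure D2:**
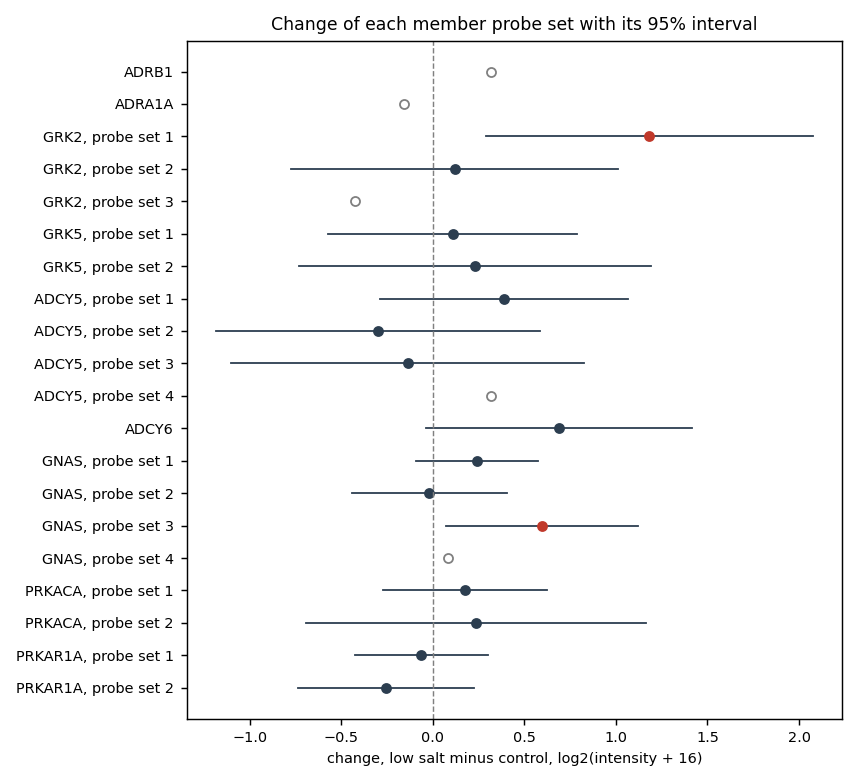
Each row gives the change of 1 member probe set, low salt minus control on the log2(intensity + 16) scale, with its 95% interval from limma. Red points stand at an unadjusted p under 0.05 (GRK2 probe set 1 and GNAS probe set 3), dark points above it, and open grey points mark the 5 probe sets that were too dim to be tested and have no interval.

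The cyclases make cyclic AMP, and types 5 and 6 are the main forms of heart muscle. ADCY6 has 1 probe set, with intensities of 45.3, 48.9, 76.0 and 20.1 in low salt, against 20.6, 24.7 and 64.5 in controls. After normalization the values were 6.24, 6.31, 6.20 and 5.60 in low salt, against 5.03, 5.34 and 5.82 in controls. Of the low-salt arrays only low-salt 4 lay below a control, control 4. The change was 0.69 ± 0.34 (SE), 1.61-fold with a 95% interval from 0.974 to 2.67, with an unadjusted p of 0.0613 and a limma adjusted p of 0.480. With the values as deposited the change was 0.29 ± 0.44 (SE).

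ADCY5 was read by 4 probe sets whose changes had both signs. Probe set 1 had normalized values of 6.70, 6.45, 6.06 and 6.93 in low salt, against 6.53, 6.01 and 5.90 in controls, a change of 0.39 ± 0.32 (SE). Probe sets 2 and 3 differed by -0.30 ± 0.41 and -0.14 ± 0.45 (SE), and probe set 4, too dim to be tested, by 0.32. All 4 had overlapping groups. Probe sets 1 and 2 had a correlation of -0.62 over the 7 arrays, and the mean over the tested probe sets differed by -0.016 with an unadjusted p of 0.955. The exact permutation p-values of the differences between the 3 tested ADCY5 probe sets ran from 0.343 to 0.857.

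PRKACA, the α catalytic subunit of PKA, was bright, and its groups overlapped. Its probe set 1 had intensities of 1095, 1560, 1003 and 1023 in low salt, against 1081, 1122 and 655 in controls. Low-salt 2 was the highest array and control 4 the lowest, with the other 5 close together. The change was 0.18 ± 0.21 (SE), with a 95% interval of 0.827-fold to 1.54-fold. Probe set 2, far dimmer, differed by 0.24 ± 0.43 (SE). Without control 4 their changes were -0.040 and -0.13.

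PRKAR1A, the type I regulatory subunit that holds the catalytic subunits inactive until cyclic AMP binds, gave the narrower interval of the PKA genes among the 9. Its probe set 1 had intensities of 2794, 2540, 1517 and 2442 in low salt, against 2326, 2388 and 1760 in controls. Low-salt 3 was lowest and control 4 next, and these are also the arrays with the highest median intensity over all probe sets, 44.2 and 51.3, against 19.3 to 39.6 on the others. The change was -0.064 ± 0.17 (SE), with a 95% interval of 0.743-fold to 1.23-fold. A 2-fold change in either direction lay outside this interval, which holds for the quantile-normalized values only. Probe set 2 followed probe set 1 over the arrays (r = 0.93) and differed by -0.25 ± 0.22 (SE). With array medians set equal both turned positive and were less precise, at 0.51 ± 0.42 and 0.34 ± 0.44 (SE).

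Over all tested probe sets the median change was 0.036 after quantile normalization, -0.18 on the deposited scale and 0.26 when array medians were made equal. Beside these shifts, GRK2 probe set 1 changed by 1.18, 0.89 and 1.32 in the same order, and GNAS probe set 3 by 0.59, 0.59 and 1.02.

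After normalization control 1 was the lowest array in 3 of the 15 tested member probe sets: GRK2 probe set 1, ADCY6 and GNAS probe set 1. Control 4 was lowest in 5 of the 15 and low-salt 3 in 3. Without control 1 the change was 0.50 for ADCY6 and 0.036 for GNAS probe set 1, against 0.69 and 0.24 with it. GNAS probe set 3 was 0.61 without it and 0.59 with it. Over the 7 arrays the normalized signal of GRK2 probe set 1 had a correlation of 0.89 with GNAS probe set 1 and of 0.79 with ADCY6, and ADCY6 had one of 0.67 with GNAS probe set 1. Without the 2 arrays farthest from the median of the first gene of each pair, these 3 correlations were 0.30, 0.49 and 0.58. GRK2 and GRK5 had a correlation of 0.027, and PRKACA and PRKAR1A of 0.31. ADCY5 and PRKAR1A had one of 0.58, and GRK2 and PRKAR1A the lowest, -0.53. That of GRK2 and ADCY5 went from -0.061 to 0.96 without low-salt 3 and control 1, so such values are unstable. These are descriptions over 7 arrays that share their normalization, 21 pairs in all.

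**Figure D3:**
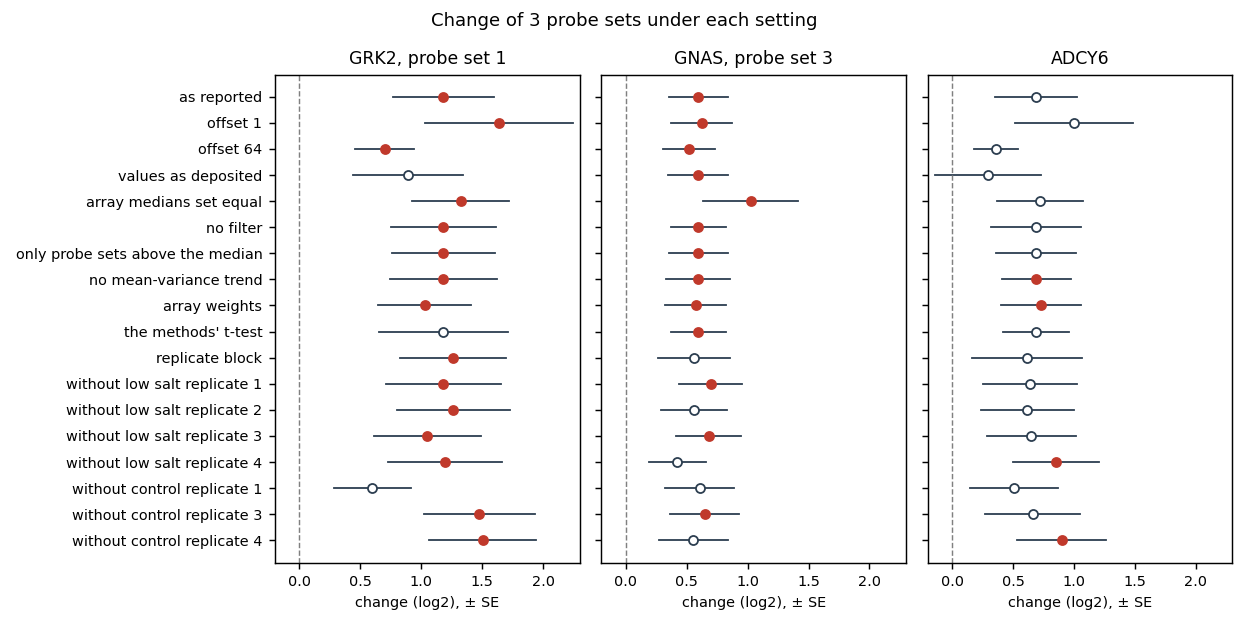
The 3 panels give the change (log2, points) and its SE (lines) of GRK2 probe set 1, GNAS probe set 3 and ADCY6 under each setting, from the values as reported at the top to each array left out at the bottom. Filled points have an unadjusted p under 0.05; GRK2 is smallest without control 1, at 0.60, and no setting turns a sign.

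The genes whose brightest tested probe set followed a member most closely were ranked by Pearson's r over the 7 arrays among 11381 genes. For ADRB1 these were CAND1 (r = 0.97), MPG (r = 0.94) and ACAP3 (r = 0.92), and without low-salt 1 and control 4, the arrays farthest from the ADRB1 median, the values were 0.81, 0.98 and 0.75. The gene of highest r was LRIG1 for ADRA1A (0.99), ONECUT3 for GRK2 (0.99), MSI2 for ADCY5 (0.98), IMPDH2 for ADCY6 (0.98), ZBED4 for GNAS (0.99), CCDC13 for PRKACA (0.98) and F2R for PRKAR1A (0.99). For GRK5 it was an uncharacterised locus, LOC487375 (0.98). These are the highest of many correlations over 7 arrays, and no member was the nearest gene of another.

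The wider pathway list held 74 other genes of adrenergic and cyclic AMP signalling, of which 64 have a named probe set and 44 a tested one. Each gene was read by its brightest tested probe set. None of the 44 passed an adjusted p of 0.05, where 0.281% of all 11381 genes did, and their smallest adjusted p was 0.141. At an unadjusted p under 0.05 stood 4 of the 44, 2 higher (RAPGEF4 and TNNI3) and 2 lower (PRKACB and MAOA), against 10.5% of all genes, 5.57% higher and 4.89% lower. After normalization the groups did not overlap in 5 of the 44, against 10.6% of all genes, 5.66% higher and 4.89% lower. Of these, 3 were higher (ADRA1B, RAPGEF4 and CACNA1C, the last named after its values were seen) and 2 lower (PRKACB and MAOA). In the deposited values the groups of the 3 higher genes overlapped. The median change of the 44 was -0.022, and that of all genes was 0.053.

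PRKACB, the β catalytic subunit of PKA, had the largest change of the list. Its brightest probe set had normalized values of 7.65, 6.39, 8.03 and 6.83 in low salt, against 9.50, 8.17 and 8.77 in controls. Every low-salt array lay below every control. The change was -1.59 ± 0.39 (SE), with an unadjusted p of 0.00132 and a limma adjusted p of 0.141, and it ran from -1.90 to -1.25 over all settings. The other PRKACB probe sets differed by -0.53 ± 0.26 (SE) and -0.11 ± 0.39 (SE). AKAP12, an anchor that holds PKA near β receptors, differed by 0.38 ± 0.19 (SE). The PKA subunits, inhibitors and anchors as a group (10 genes tested) had a median of -0.064.

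In the handling of catecholamines, MAOA, the mitochondrial monoamine oxidase that breaks down noradrenaline, had values of 6.16, 6.28, 6.73 and 5.96 in low salt, against 7.52, 7.34 and 7.24 in controls. The groups were apart, with a change of -1.08 ± 0.28 (SE, unadjusted p = 0.00192, adjusted p = 0.166). The other MAOA probe set differed by -0.13 ± 0.35 (SE). SLC6A2, the noradrenaline transporter of sympathetic nerve endings, differed by -0.57 ± 0.34 (SE), and 3 genes of this group were tested. The list of nerve and Schwann cell markers had 4 of 6 genes named and 1 tested, with summed deposited intensities of 15.4 to 45.1 in low salt and of 41.0 to 132 in controls. Array median intensities also differed, at 19.3 to 44.2 in low salt and 31.5 to 51.3 in controls. After normalization the mean log2 level of the list was 4.55 in low salt and 4.81 in controls (exact two-sided permutation p = 0.114). S100B, the tested one, had median intensities of 5.9 in low salt and of 49.2 in controls, a change of -0.88 ± 0.49 (SE) with overlap. SOX10, too dim to be tested, had 3.0 in low salt and 16.4 in controls, with groups apart. TH and DBH, also too dim to be tested, had median intensities of 2.3 and 7.6 in low salt, and of 2.5 and 6.2 in controls. With 1 of its 4 named genes bright enough to be tested, the list cannot measure nerve content. The part of nerve content in the MAOA and SLC6A2 values was not tested.

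Among the sensors and targets of cyclic AMP (11 genes tested, median 0.14), RAPGEF4, the exchange factor EPAC2, had values of 6.47, 6.25, 6.18 and 6.08 in low salt, against 5.04, 5.80 and 5.14 in controls. The change was 0.92 ± 0.32 (SE, unadjusted p = 0.0126, adjusted p = 0.325), without overlap after normalization. With the values as deposited it was 0.55 (unadjusted p = 0.165). The deposited groups overlapped, with low-salt 4 at 34.8 and control 3 at 39.6. TNNI3, the inhibitory troponin that PKA phosphorylates, differed by 0.25 ± 0.11 (SE, adjusted p = 0.422). With the values as deposited it differed by 0.094 (unadjusted p = 0.678), and its unadjusted p was under 0.05 in 8 of 18 settings. The calcium genes of this group, named after their values were seen, are PLN, RYR2 and the channel subunits CACNA1C and CACNB2. PLN and RYR2 differed by 0.017 ± 0.081 and 0.0059 ± 0.083 (SE). Both stood at the top of the array, at the 99.97th and 99.91th percentile, where quantile normalization gives every array nearly the same values. Their small changes and SE are in part set by it and cannot show that these genes were unchanged. The deposited medians were 14746 and 12060 in low salt, against 17806 and 14833 in controls. CACNA1C differed by 0.48 ± 0.31 (SE) with groups apart, and CACNB2 by -0.59 ± 0.37 (SE) with groups that overlapped.

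The receptors and their regulators beyond the 9 genes were thinly read. ADRA1B, the α1B receptor, was the 1 receptor of 4 named that was tested. Its normalized values were 5.69, 5.33, 6.50 and 6.11 in low salt, against 5.15, 5.32 and 4.996 in controls. The groups just missed each other at 5.33 (low-salt 2) and 5.32 (control 3). In the deposited values low-salt 2, at 16.3, lay below the controls, at 24.1 to 26.5. The change was 0.75 ± 0.36 (SE, unadjusted p = 0.0556, adjusted p = 0.467), or 0.35 with the values as deposited, and its other probe set, too dim to be tested, differed by 0.51. GRK3, the closest relative of GRK2, differed by 0.42 ± 0.31 (SE), and both arrestins, ARRB1 and ARRB2, were too dim to be tested.

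Of the G proteins and RGS proteins 13 were tested, with a median of -0.12 and none at an unadjusted p under 0.05. GNB2, a β subunit, differed by 0.59 ± 0.43 (SE), with normalized values of 5.82 to 6.63 in low salt, against 4.44, 6.25 and 6.07 in controls, control 1 again being the lowest array. Without control 1 the change was 0.024. GNA11, which couples α1 receptors to phospholipase C, differed by -0.45 ± 0.35 (SE). Of the other cyclases and cyclase-associated proteins 5 were tested, with none at that level, and ADCY9 and ADCY2 differed by 0.55 ± 0.55 and -0.23 ± 0.42 (SE). The other tested ADCY2 probe set differed by -0.38 ± 0.48 (SE), and those too dim to be tested by 0.097, -0.30 and 0.75.

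**Figure D4:**
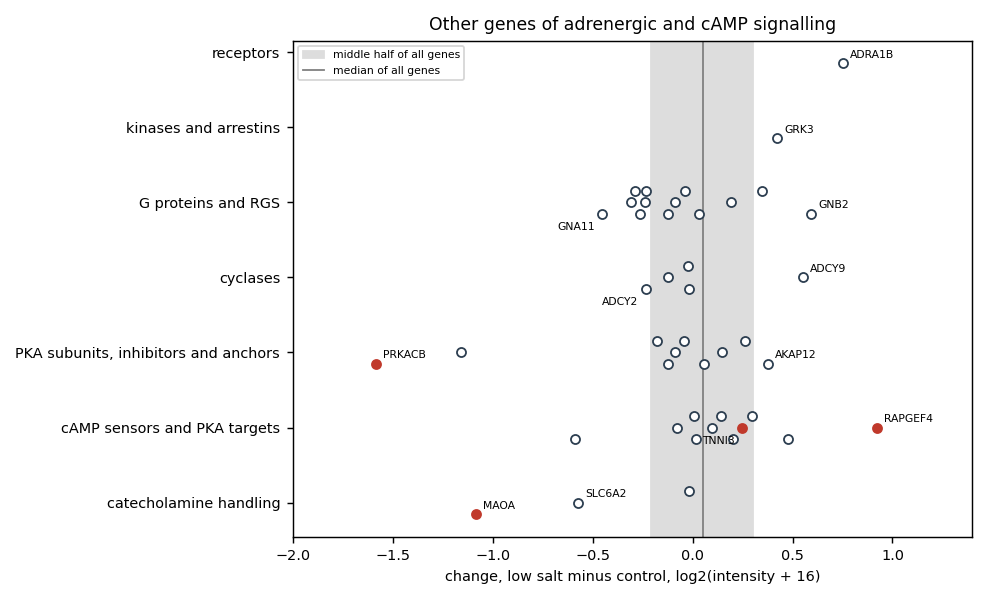
Each point is 1 gene of the wider list, placed by its change (low salt minus control, log2(intensity + 16)) in its role group; red points stand at an unadjusted p under 0.05 and named genes are the 2 of smallest p in each group. The grey band is the middle 50% of all genes, from -0.21 to 0.30, and the line their median, 0.053. PRKACB and MAOA lie farthest left among the named genes, and PRKAR1B, not named in the figure, lies between them at -1.16.

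The 8 cardiomyocyte markers summed to intensities of 50435 to 70100 in low salt and of 51331 to 79039 in controls, with a median change of -0.044. At an unadjusted limma p under 0.05, 1 of the 8 was higher (TNNI3, 0.25) and 1 lower (ACTN2, -0.27, with groups apart), where 10.5% of all genes stood. Of 4 atrial markers 2 are named, with summed intensities of 3387 to 5778 in low salt and of 2683 to 7147 in controls. The atrial light chain MYL4 had median intensities of 305 in low salt and of 1520 in controls, a change of -2.14 ± 0.65 (SE, unadjusted p = 0.00536, adjusted p = 0.258) with overlap. MYL7 had 3885 in low salt and 2935 in controls, a change of 0.39 ± 0.21 (SE). The part of atrial tissue in the values above was not tested. Summed smooth muscle markers ran from 853 to 1360 in low salt and from 588 to 1223 in controls, and their mean log2 level gave an exact permutation p of 0.229. The GAPDH 3' to 5' ratio averaged 17.7 ± 3.46 in low salt (SD, n = 4) and 29.3 ± 10.0 in controls (SD, n = 3), with groups apart (p = 0.0571 by exact two-sided permutation). In the second pair it averaged 2.27 ± 0.17 in low salt (SD, n = 4) and 2.58 ± 0.18 in controls (SD, n = 3), with the same exact permutation p, and the part of RNA integrity in the values above was not tested.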

How the data were processed

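The authors deposited 1 linear intensity per probe set and array, made with GCOS, the software of the array maker, per the submitters' processing notes. Its version, the probe summary and the genome build are not stated in what was used here, so no coordinates are given. The 2% trimmed mean was 150.0 on every array, but array medians differed by up to 0.93 on the log2(intensity + 16) scale, so arrays were quantile normalized on that scale. The 111 control probe sets and the 33.3% of the other 42924 with the lowest mean over all arrays were left out. The other 28616 were fitted by limma 3.58.1 under R 4.3.3 (lmFit, then eBayes with trend), low salt minus control. No covariate was used, as no batch is labelled, and Benjamini-Hochberg adjustment ran over all of them. Single values per array were tested by exact permutation of the group labels, two-sided.

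Per the design text, the authors used a t-test with a p of 0.05 and 2-fold change; here a t-test on the same normalized values is called the methods' t-test. Names come from the platform annotation, updated by gene number through the table of assembly UU_Cfam_GSD_1.0: 29254 probe sets have 1 symbol, of which 27680 matched, 439 have several and 13231 have none. All member probe sets are named, with the 2 genes of smallest p in each group of the wider list. The members, lists and tests were chosen with earlier results of these data known. Arrays carry no read depth, so their number limits the precision.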

Additional observations from a re-analysis of the deposited data

Results flagged for a closer look

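Within the 4 low-salt arrays, 1 array stood apart from the other 3 in 4 of the 20 member probe sets by Dixon's criterion, which chance meets in about 1 in 20 groups. It was met by 20% of the members, against 8.43% of all probe sets that are not controls of the array maker, and by 2 of the 15 tested members (13.3%), against 6.14% of all tested probe sets. The probe sets share the same 4 arrays. Low-salt 1 had a normalized log2 signal of 5.51 in GRK2 probe set 3, and low-salt 4 one of 4.79 in GNAS probe set 4, both too dim to be tested. Low-salt 4 stood below the other low-salt arrays in ADCY6, at 5.60. Low-salt 3 stood below them in PRKAR1A probe set 2, at 9.91.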

How the results depend on the processing

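The count of member probe sets past an adjusted p of 0.05 was 0 in every setting run, by limma and by the methods' t-test. The 2 at an unadjusted p under 0.05 became 1 with the values as deposited, with the methods' t-test and with the replicate block, where 13.6%, 10% and 6.35% of all tested probe sets stood there. They became 3 without the mean-variance trend (11% of all) and with array weights (12.5%). With 1 array left out they ran from 0 without control 1 (7.96%) to 3 without control 3 (10.9%), with 1 without low-salt 2 (8.46%). The 4 genes of the wider list at that level became 7 with array weights and ran from 3 to 7 with 1 array left out, with 7 without low-salt 3 and without control 4. Over all tested probe sets the 99 past an adjusted p of 0.05 became 39 with an offset of 1, 165 with the values as deposited, 27 without the filter, 19 without the mean-variance trend, 177 with array weights, 4 by the methods' t-test and 28 with the replicate block. With 1 array left out they ran from 21 (without low-salt 4 or control 1) to 290 (without control 4), with 24 without low-salt 1, 26 without low-salt 2 and 41 without control 3.

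Signs turned in probe sets with small changes, none of them at an unadjusted p under 0.05 as reported. With the values as deposited the changes were -0.24 for GRK2 probe set 2, -0.28 and -0.14 for GRK5 probe sets 1 and 2, 0.13 for GNAS probe set 2, -0.074 for PRKACA probe set 2 and 0.082 for PRKAR1A probe set 1. With array medians set equal they were 0.56 for GNAS probe set 2 and 0.51 and 0.34 for PRKAR1A probe sets 1 and 2. Array weights gave -0.027 for GRK2 probe set 2, and the mean over tested probe sets -0.016 for ADCY5. With 1 array left out, the range was -0.15 to 0.44 for GRK2 probe set 2, -0.17 to 0.33 and -0.27 to 0.76 for GRK5 probe sets 1 and 2, -0.37 to 0.030 for ADCY5 probe set 3 and -0.25 to 0.094 for GNAS probe set 2. It was -0.040 to 0.29 and -0.13 to 0.64 for PRKACA probe sets 1 and 2, -0.16 to 0.070 for PRKAR1A probe set 1 and -0.50 to 0.083 for ADCY2. Among the untested ones, ADRA1A was 0.062 with the replicate block and -0.54 to 0.062 with 1 array left out. GNAS probe set 4 was -0.097 as deposited and -0.060 to 0.15 with 1 array left out. The cause was not tested.

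Both groups have arrays numbered 1, 3 and 4, and the labels do not say whether equal numbers pair the arrays. Same-numbered arrays had correlations of their deviations from the group means of 0.074, -0.26 and -0.18. Low-salt 3 and control 4, with different numbers, had one of 0.43. Deviations from the means of groups this small depend on each other, so these values cannot decide whether the arrays are paired. The replicate block, fitted without low-salt 2, gave 28 calls, against 26 for the same 6 arrays without it. Leaving out a low-salt array leaves 3 against 3, and leaving out a control leaves 2 controls.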
